A study of Mus musculus with 15 samples.

Results

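Monocyte-derived macrophages (MDM) without lipid load were set against microglia (MG) without lipid load, both sorted by flow cytometry from mouse gliomas and profiled by bulk RNA-seq. The members were chosen from the library names alone: 4 MDM libraries, numbered 224, 221, 431 and 718, against 4 microglia libraries with those numbers, together 8 of the 15 libraries of the series. The other 7 libraries came from the lipid-laden counterparts, 3 of MDM (numbers 224, 221 and 718) and 4 of microglia (all 4 numbers). All 15 came from primary tumours of the PDG-Ink4a model, in which Ink4a/Arf is knocked out and PDGFB, the B chain of platelet-derived growth factor, is expressed in Nestin-positive progenitors. MDM and microglia therefore share genotype and tumour model, no treatment is named for either, and tumour-free brain and blood monocytes were not among these groups. The age and sex of the mice, the antibodies and gates of the sort and the lipid stain are not given in these sources. The titles do not say whether a number is 1 animal, so the p-values below measure the spread between libraries, part of which may be technical.

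Microglia are the resident macrophages of the brain: they derive from yolk sac precursors, renew themselves in place and depend on CSF1R and TGF-beta signalling. MDM descend from bone marrow monocytes, which enter the tumour through the chemokine receptor CCR2 and can take on macrophage or dendritic cell-like programmes. Both populations are abundant in malignant glioma, where they share phagocytic, lipid-handling and inflammatory genes while keeping marks of their origin.

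The deposited table holds whole-number read counts for 55486 genes on mouse build mm10, and 14843 genes passed the count filter. Totals were 7798952 to 11419338 counts in MDM and 7842531 to 9658143 in microglia, with 15127 to 16560 genes detected in MDM and 16888 to 17786 in microglia. The mitochondrial share was 0.442% to 0.657% in MDM and 0.643% to 0.986% in microglia. On the first principal component of log2 CPM, which held 36.2% of the variance, MDM lay at 111 to 127 and microglia at -71.3 to -60.4. Within each of the 4 groups the same 1 number, 224, expressed the Y-linked gene Ddx3y and had almost no Xist, so sex differs between numbers and not between the groups. Values below are CPM (counts scaled to the size of the library) with TMM scaling, listed for libraries 224, 221, 431 and 718 in that order, and fold changes are log2 of MDM over microglia with a standard error. Genes count as called below an adjusted p of 0.05 in edgeR's quasi-likelihood test over all genes tested. In bulk samples a lower level can come from fewer cells of a type or from less RNA per cell, and the values cannot tell these apart.

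MDM and microglia without lipid load differed at 3442 genes, 23.2% of those tested. MDM were higher at 1584 genes (10.7%) and lower at 1858 (12.5%). At 2-fold or more, 1032 genes were higher (6.95%) and 1451 lower (9.78%). The 4 MDM values lay wholly above the 4 microglia values at 2045 genes (13.8%) and wholly below them at 2198 (14.8%). The median log2 fold change over all genes tested was -0.12, and leaving out scaling beyond library size shifted the median gene by a further -0.105. The gene lists that follow are read against these shares.

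**Figure D1:**
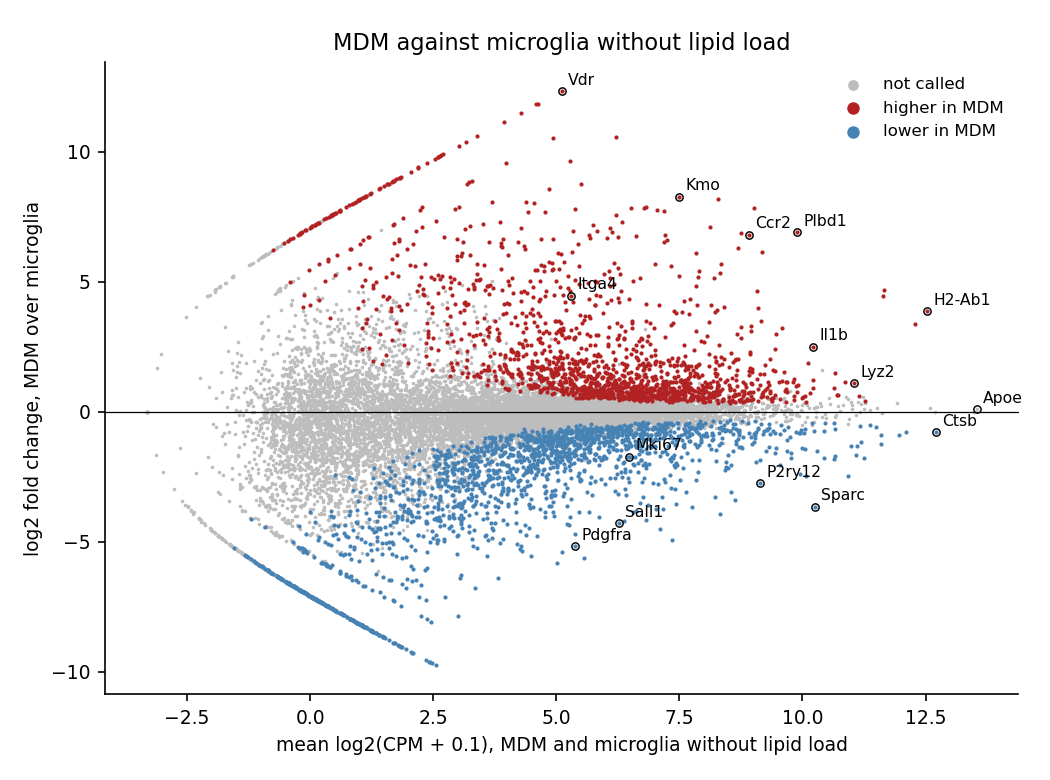
Log2 fold change of MDM over microglia against mean log2 CPM for the 14843 genes tested, 1 point a gene. Genes called higher in MDM (1584) and lower in MDM (1858) are coloured, and a few of the genes named in the text are labelled.

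The labels were checked first against genes that mark each origin. Itga4, the integrin alpha-4 chain (CD49d) that separates blood-derived cells from microglia, had 114, 63.8, 50.4 and 73.8 CPM in MDM and 6.13, 4.34, 0 and 3.03 CPM in microglia. No MDM library came near the microglia range, and the log2 fold change was 4.47 ± 0.99 (edgeR adjusted p = 0.004). Ccr2, the receptor for CCL2 on classical monocytes, had 1269.7, 780.3, 753 and 1035 CPM in MDM and 9.89, 13.2, 4.79 and 5.94 CPM in microglia. Its 4 MDM libraries stood above all microglia libraries, with a log2 fold change of 6.81 ± 0.63 (edgeR adjusted p = 2.51e-06). Ly6c2, the surface antigen of classical monocytes, was low even in MDM, at 11.6, 36.7, 16.1 and 19.8 CPM in MDM and 0, 1.24, 0 and 1.14 CPM in microglia. The groups did not overlap and the gene was called, with a log2 fold change of 5.12 that became 5.82 without microglia library 221. The defining marks of blood-derived cells were therefore present in all MDM libraries and near 0 in microglia.

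Of 33 tested genes that mark monocytes and cells fresh from them, 30 were higher in MDM, 1 was lower and 2 were not called, with a median log2 fold change of 4.03. Napsa, an aspartic protease of monocytes and their progeny, had 704, 578, 641 and 569.9 CPM in MDM and 3.33, 1.24, 1.64 and 2.40 CPM in microglia, a log2 fold change of 8.17 ± 0.79 (edgeR adjusted p = 3.39e-06). Tgfbi, a secreted matrix protein, had 1163, 1168, 1412 and 1306 CPM in MDM and 118, 113, 196 and 208 CPM in microglia. Plac8 averaged 577 ± 84.3 CPM in MDM and 16.4 ± 9.28 CPM in microglia, and Thbs1, thrombospondin 1, averaged 1038 ± 181 CPM in MDM and 41.6 ± 20.7 CPM in microglia. Lyz2, lysozyme, was abundant in both, at 2672, 3129, 2799 and 2970.03 CPM in MDM and 1316, 1687, 843 and 1516 CPM in microglia. Its MDM libraries were all above its microglia libraries, but the log2 fold change was only 1.11 ± 0.18 (edgeR adjusted p = 3.93e-04). Fibronectin (Fn1) averaged 1021 ± 43.97 CPM in MDM and 339 ± 139 CPM in microglia. The MS4A tetraspan family, some of whose members mark monocyte-derived brain macrophages in mouse, had 8 of 10 tested members higher and none lower. Among them Ms4a7 had 311, 363, 316 and 551 CPM in MDM and 27.3, 39.8, 7.25 and 38.4 CPM in microglia, a log2 fold change of 3.77 ± 0.53 (edgeR adjusted p = 1.00e-04), and the groups did not overlap. Reads of Ms4a and Ifitm genes can be shared between near-identical copies, so the split within these families is uncertain. The exception among the monocyte genes, Vcan (versican), had 0.906, 0.350, 0.260 and 0 CPM in MDM and 3.23, 11.99, 0.117 and 9.61 CPM in microglia, with a log2 fold change of -3.99 (edgeR adjusted p = 0.038). Its call was lost when MDM library 221, 431 or 718 or microglia library 221 or 718 was left out (edgeR adjusted p = 0.080 to 0.089), and without MDM library 224 the log2 fold change was -4.90. By limma-voom Vcan was not called (adjusted p = 0.16).

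The homeostatic programme of microglia was lower in MDM without exception: 26 of 26 tested genes were called lower, with a median of -2.42. P2ry12, the ADP receptor that steers microglial processes, had 129, 124, 162 and 175 CPM in MDM and 1218, 773, 985 and 942 CPM in microglia. The highest MDM library was far below the lowest microglia library, and the log2 fold change was -2.73 ± 0.30 (edgeR adjusted p = 1.25e-05). Tmem119 had 204, 243, 432 and 393 CPM in MDM and 1813, 1287, 1885 and 1660.1 CPM in microglia, a log2 fold change of -2.38 ± 0.31 (edgeR adjusted p = 5.05e-05). Cx3cr1, the fractalkine receptor, had 610.5, 522, 696 and 661 CPM in MDM and 2641, 1707, 2037 and 2182 CPM in microglia, a log2 fold change of -1.78 ± 0.27 (edgeR adjusted p = 1.95e-04). Gpr34, a lysophosphatidylserine receptor, averaged 55.9 ± 26.9 CPM in MDM and 543 ± 42.6 CPM in microglia. Sparc, a matrix-binding glycoprotein, had 71.7, 109, 344 and 193 CPM in MDM and 2667, 1272, 2494 and 2558 CPM in microglia. Microglia library 221 was the lowest of its group for Sparc, and MDM library 431 the highest of its own. The fructose transporter Slc2a5 had the largest log2 fold change of the 26, at -4.92 ± 0.68 (edgeR adjusted p = 8.55e-05), with 9.87, 5.01, 19.9 and 7.16 CPM in MDM and 351, 143, 396 and 371 CPM in microglia. Siglech, a lectin shared with plasmacytoid dendritic cells, averaged 78.5 ± 50.8 CPM in MDM and 673 ± 270.1 CPM in microglia. MDM thus held detectable levels of most of these transcripts, and the files give no measure of how many microglia were in the MDM sort.

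**Figure D2:**
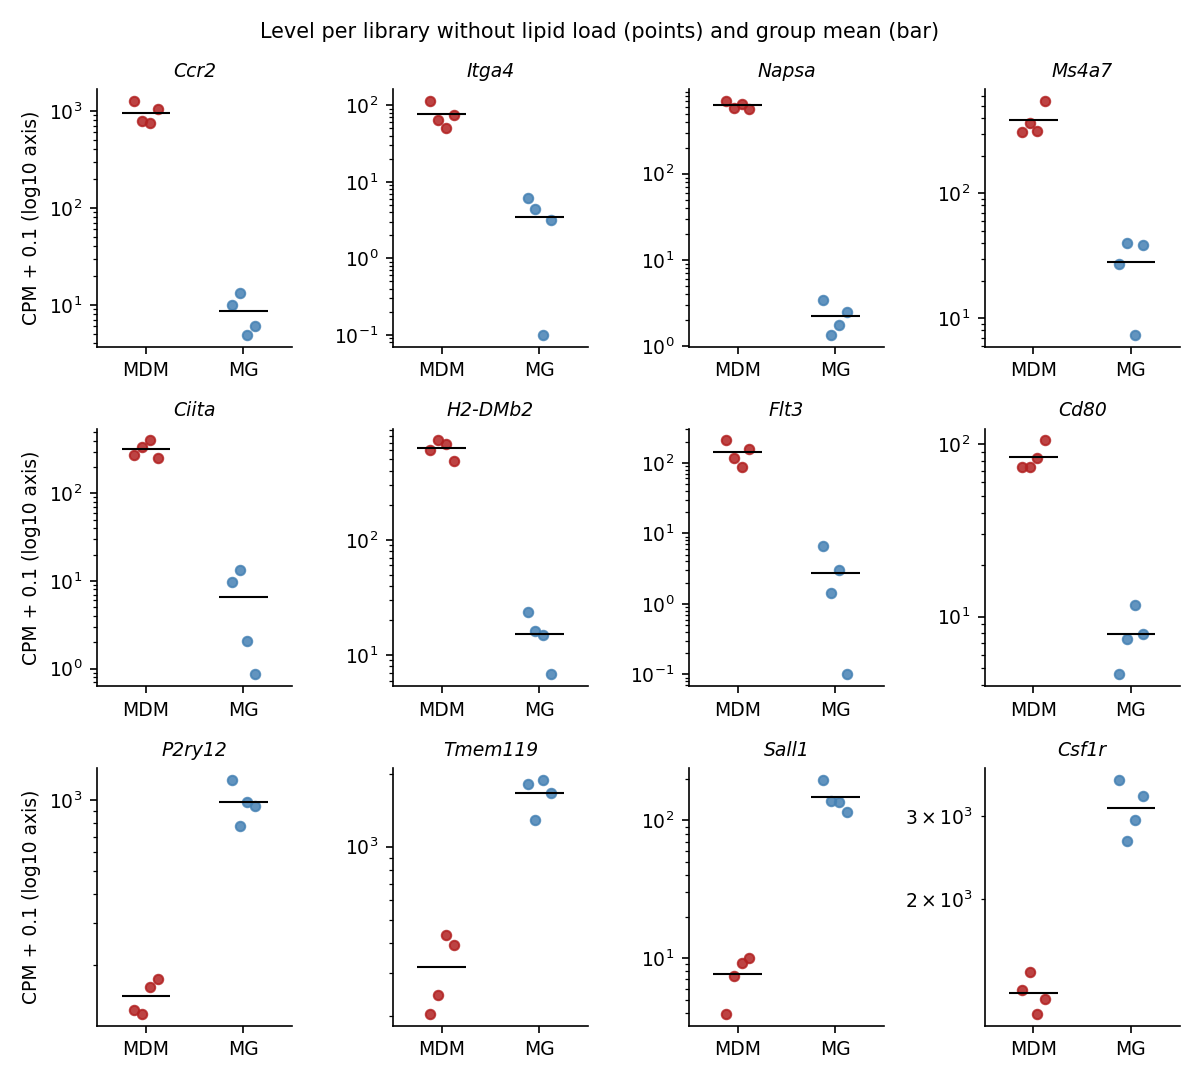
CPM of 12 genes in each library on a log10 axis with a pseudocount, MDM left of microglia, 1 point a library. For the monocyte genes (upper row) and for Ciita, H2-DMb2, Flt3 and Cd80 (middle row) the MDM points lie above the microglia points. For the microglial genes (lower row) the MDM points lie below the microglia points.

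The promoters of 2 of these microglial genes are printed to show letters that belong to factors known in microglia. Both come from RefSeq on GRCm38.p6, run from 250 bases before to 50 after the annotated start and read 5′ to 3′ on the gene's strand. P2ry12 (minus strand, chr3:59262936-59263235) holds 1 match of AGGAAGT, an ETS site form bound by PU.1, at bases 199 to 205, in capitals. Cx3cr1 (minus strand, chr9:120068247-120068546) holds 1 match of a loose 10-letter MEF2 pattern at bases 184 to 193, in capitals. Its 4 central positions were left free in the search, and this match has a G among them, where MEF2 sites hold A or T.
P2ry12: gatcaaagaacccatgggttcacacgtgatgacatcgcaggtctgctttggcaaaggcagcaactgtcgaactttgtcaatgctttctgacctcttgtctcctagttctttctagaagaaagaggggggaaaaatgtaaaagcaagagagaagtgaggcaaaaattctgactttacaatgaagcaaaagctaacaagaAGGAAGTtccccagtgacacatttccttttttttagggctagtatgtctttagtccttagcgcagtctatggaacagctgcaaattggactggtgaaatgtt
Cx3cr1: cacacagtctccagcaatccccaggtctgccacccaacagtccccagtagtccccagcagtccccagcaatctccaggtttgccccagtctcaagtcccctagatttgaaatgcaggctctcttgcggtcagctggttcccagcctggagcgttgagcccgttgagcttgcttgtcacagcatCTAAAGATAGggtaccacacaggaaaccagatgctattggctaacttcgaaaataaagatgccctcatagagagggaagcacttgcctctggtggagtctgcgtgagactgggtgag
Over all promoter windows searched, AGGAAGT was found on either strand in 9.35% and the MEF2 pattern in 3.69%. Among the 20 windows of the 16 homeostatic genes matched by symbol, of 26, they were found in 4 and 1. A match describes letters in this window only.

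Transcription factors split by origin, with 17 of 40 tested identity factors higher in MDM and 12 lower. Sall1, the zinc finger factor that upholds microglial identity, had 3.83, 7.35, 9.11 and 9.87 CPM in MDM and 197, 138, 137 and 115 CPM in microglia, a log2 fold change of -4.28 ± 0.33 (edgeR adjusted p = 5.31e-07). Its paralogue Sall3 had 0.504, 0.350, 4.03 and 2.72 CPM in MDM and 98.5, 63.8, 106 and 99.8 CPM in microglia. For both, the highest MDM library was far below the lowest microglia library. Bhlhe41, Egr1, Mef2c, Smad3 and Klf2 were also lower in MDM, with log2 fold changes of -2.79, -1.51, -1.09, -1.88 and -2.25. Among the factors higher in MDM, the vitamin D receptor Vdr had 59.1, 67.4, 92.8 and 56.3 CPM in MDM and 0, 0, 0 and 0 CPM in microglia. With no Vdr read in any microglia library, its level was at least 793-fold higher in MDM against a floor of 3 counts over the group (edgeR adjusted p = 1.41e-04). The aryl hydrocarbon receptor Ahr had 116, 128, 113 and 70.7 CPM in MDM and 2.26, 0.310, 0 and 0.253 CPM in microglia, a log2 fold change of 7.18 ± 0.98 (edgeR adjusted p = 8.03e-05) that was 9.05 without microglia library 224. Irf4, a factor of type 2 dendritic cells and plasma cells, averaged 79.04 ± 10.7 CPM in MDM and 1.11 ± 0.887 CPM in microglia, and its log2 fold change of 6.14 was 6.80 without microglia library 224. Runx3 had 139, 113, 278 and 147 CPM in MDM and 5.16, 7.13, 15.7 and 5.56 CPM in microglia. Bhlhe40, a repressor of IL-10 in myeloid cells, had 1677, 1245, 1225 and 1397 CPM in MDM and 129.99, 174, 125 and 158 CPM in microglia, a log2 fold change of 3.24 ± 0.26 (edgeR adjusted p = 6.63e-07). The paralogues Bhlhe40 and Bhlhe41 thus moved in opposite directions. Irf8 was lower in MDM, at 251, 328, 263 and 256 CPM in MDM and 567, 416, 522 and 471 CPM in microglia, a log2 fold change of -0.85 ± 0.15 (edgeR adjusted p = 9.03e-04).

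MHC class II genes, which present antigen to CD4 T cells, gave the 4 largest gains in CPM. Of 16 tested genes of class II presentation MDM were higher at 12 and lower at none, with a median of 2.81. H2-Ab1, the beta chain of I-A (mm10 chromosome 17, 34257689 to 34269419), had 11197, 11126, 12245 and 9968 CPM in MDM and 434, 2103, 272 and 225 CPM in microglia. MDM libraries lay within a narrow range, whereas microglia library 221 stood far above the other 3. The log2 fold change was 3.88 ± 0.79 (edgeR adjusted p = 0.0021), and 5.18 without library 221. H2-Aa, its alpha chain, had 6491, 5853, 6750.5 and 5323 CPM in MDM and 104, 937, 52.03 and 32.5 CPM in microglia, and H2-Eb1, the I-E beta chain, had 6526, 5979, 7002 and 5396 CPM in MDM and 114, 785, 44.3 and 33.1 CPM in microglia. Both repeated the pattern, with library 221 highest of the microglia and no overlap. Their log2 fold changes were 4.44 ± 1.35 (edgeR adjusted p = 0.027) and 4.67 ± 1.32 (edgeR adjusted p = 0.018), and without microglia library 221 they were 6.61 and 6.62. The call of H2-Eb1 was lost without microglia library 224 (edgeR adjusted p = 0.052), and that of H2-Aa without microglia library 224 (0.072), 431 (0.065) or 718 (0.064). Cd74, the invariant chain, had 10345, 8869, 9352 and 7897 CPM in MDM and 387, 2673, 257 and 169 CPM in microglia. Its call (edgeR adjusted p = 0.031) was lost without MDM library 224 (0.053) or microglia library 224 (0.082), 431 (0.077) or 718 (0.075), and its log2 fold change of 3.39 became 5.09 without microglia library 221. For all 4 genes every MDM library was above every microglia library.

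Ciita, the master regulator of class II transcription, had 274, 341, 404 and 250.02 CPM in MDM and 9.57, 13.3, 1.99 and 0.759 CPM in microglia, a log2 fold change of 5.61 ± 1.08 (edgeR adjusted p = 0.0015) that was 6.25 without microglia library 221. The subunits of its DNA-bound partner RFX did not follow: Rfx5, Rfxap and Rfxank had log2 fold changes of 0.43, 0.57 and 0.17, and none was called. Genes that load the peptide were also higher in MDM. H2-DMb2 had 605, 733, 683 and 487 CPM in MDM and 23.5, 16.2, 14.7 and 6.70 CPM in microglia, a log2 fold change of 5.35 ± 0.33 (edgeR adjusted p = 8.77e-08), and H2-DMb1 had 862, 764, 834 and 747 CPM in MDM and 154, 220.3, 165 and 147 CPM in microglia. The near-identical H2-DMb copies may share reads, so their split is uncertain. H2-Oa, the alpha chain of the inhibitor of H2-DM, had 295, 145, 240.3 and 199 CPM in MDM and 22.04, 16.3, 28.1 and 15.05 CPM in microglia, and H2-Ob averaged 211 ± 59.2 CPM in MDM and 46.5 ± 5.49 CPM in microglia. The cathepsin that trims the invariant chain, Ctss, had 6323, 6846, 6622 and 6533 CPM in MDM and 6405, 7423, 5972 and 6686 CPM in microglia and was not called (log2 fold change -0.01 ± 0.11, edgeR adjusted p = 0.97). Of 18 tested class I genes 6 were higher and none lower, with a median of 0.24, while 2 were lower without scaling beyond library size or with upper quartile scaling. These 6 were the immunoproteasome subunits Psmb8, Psmb9 and Psmb10 (log2 fold changes 1.13, 1.21 and 0.96), the loading genes Tap2 and Tapbp (0.98 and 0.92) and H2-T23 (1.02). The heavy chains themselves were not called: H2-K1 had 2565, 3003, 2938 and 2484 CPM in MDM and 1637, 3331, 1651 and 2103 CPM in microglia, and H2-D1 had 2803, 3455, 3256 and 2787 CPM in MDM and 2247, 3849.7, 2259 and 2752 CPM in microglia. The groups overlapped for both, and microglia library 221 was the highest of all 8. Without it H2-K1 was called higher in MDM, with a log2 fold change of 0.63 (edgeR adjusted p = 0.042).

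**Figure D3:**
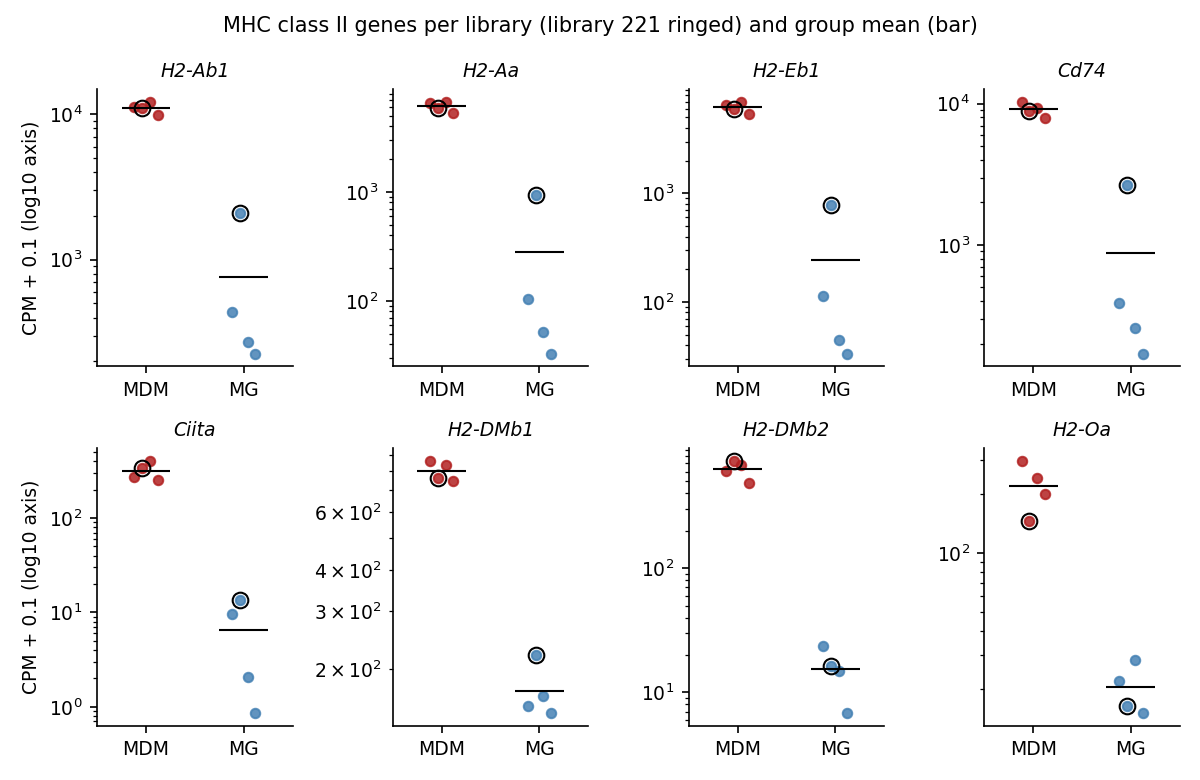
CPM of 8 MHC class II genes in each library on a log10 axis with a pseudocount, MDM left of microglia, 1 point a library, with library 221 ringed in black. Microglia library 221 lies above the other 3 microglia libraries for H2-Ab1, H2-Aa, H2-Eb1 and Cd74, and below every MDM library.

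Class II promoters carry a conserved module in which RFX binds the X box and NF-Y the Y box, whose core is ATTGG. The 3 promoters below, from RefSeq on GRCm38.p6 as before, show which letters of that module a plain search finds in genes that moved together. Capitals mark the X box core, an 11-letter pattern with 3 free positions, and ATTGG on either strand, with no overlap between matches.
H2-Eb1 (plus strand, chr17:34305617-34305916, X box core at bases 159 to 169, ATTGG at 192 to 196 and 216 to 220): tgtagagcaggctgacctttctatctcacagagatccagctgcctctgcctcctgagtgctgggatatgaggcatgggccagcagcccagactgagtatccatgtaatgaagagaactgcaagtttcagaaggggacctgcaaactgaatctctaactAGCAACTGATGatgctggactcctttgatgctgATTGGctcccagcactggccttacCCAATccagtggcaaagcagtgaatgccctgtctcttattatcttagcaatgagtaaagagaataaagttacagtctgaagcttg
H2-Oa (plus strand, chr17:34092129-34092428, X box core at bases 110 to 120, ATTGG at 208 to 212): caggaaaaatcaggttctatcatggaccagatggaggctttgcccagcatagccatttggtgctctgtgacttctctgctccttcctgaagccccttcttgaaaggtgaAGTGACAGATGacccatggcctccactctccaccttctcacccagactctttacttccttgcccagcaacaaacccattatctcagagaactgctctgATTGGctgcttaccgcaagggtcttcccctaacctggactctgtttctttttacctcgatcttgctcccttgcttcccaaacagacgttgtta
H2-Aa (minus strand, chr17:34287774-34288073, ATTGG at bases 203 to 207): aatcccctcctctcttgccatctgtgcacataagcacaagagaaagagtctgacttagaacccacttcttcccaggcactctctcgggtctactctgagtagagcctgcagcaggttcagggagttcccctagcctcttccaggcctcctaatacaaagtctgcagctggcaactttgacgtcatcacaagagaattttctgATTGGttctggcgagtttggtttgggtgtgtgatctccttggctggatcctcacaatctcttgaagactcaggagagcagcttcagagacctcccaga
The X box core was found in 4 of 13 windows of the 12 class II genes matched by symbol, of 16, and in 0.968% of all windows searched. ATTGG was found in 10 of 13 and in 37.4%. In H2-Oa the X box core match lies farther from ATTGG than in H2-Eb1, and whether it is the X box was not tested. A window without a match, as for the X box core in H2-Aa, may hold a form that the pattern misses.

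Markers of conventional dendritic cells were mostly higher in MDM. Of 8 tested genes shared by conventional dendritic cells MDM were higher at 7 and lower at none, with a median of 5.03, and the summed level of the list was 4511, 3504, 2562 and 4068 CPM in MDM and 1798, 2649, 1406 and 2381 CPM in microglia. Flt3, the receptor of the dendritic cell growth factor FLT3L, had 209, 115, 86.9 and 157 CPM in MDM and 6.45, 1.34, 2.92 and 0 CPM in microglia, and its log2 fold change of 5.71 was 6.63 without microglia library 224. Ccr7, the receptor that draws mature dendritic cells to lymph nodes, had 667, 475, 183 and 498 CPM in MDM and 10.4, 17.2, 13.2 and 9.61 CPM in microglia, with MDM library 431 the lowest of its group and still above all microglia. Zbtb46, a factor of conventional dendritic cells, averaged 35.5 ± 8.84 CPM in MDM and 4.19 ± 1.86 CPM in microglia. Of 9 type 2 dendritic cell genes 8 were higher, with a median of 6.62. Among them Mgl2 had 998, 1323, 556 and 552 CPM in MDM and 20.97, 5.17, 1.17 and 1.14 CPM in microglia, a log2 fold change of 6.89 that was 8.39 without microglia library 224, and Clec10a averaged 225 ± 61.2 CPM in MDM and 0.892 ± 1.08 CPM in microglia, with 7.89 that was 8.80 without microglia library 221. The exception, Sirpa, had 469, 485, 435 and 466 CPM in MDM and 974, 779, 699 and 889.96 CPM in microglia and was lower in MDM (log2 fold change -0.85 ± 0.17, edgeR adjusted p = 0.0024). Of 13 type 1 genes 8 were higher and 2 lower. Xcr1, the XCL1 receptor that defines the type 1 lineage, had 47.2, 36.5, 18.5 and 21.02 CPM in MDM and 3.55, 2.27, 2.46 and 3.29 CPM in microglia, a log2 fold change of 3.41 ± 0.79 (edgeR adjusted p = 0.0053). Cadm1, also a type 1 marker but expressed by microglia as well, had 8.26, 16.6, 17.05 and 6.61 CPM in MDM and 196, 221, 244 and 191 CPM in microglia and was lower in MDM. Of 15 genes of mature dendritic cells 8 were higher and none lower. Plasmacytoid dendritic cell genes did not share this direction, with 2 of 8 higher, or 1 without microglia library 224, and 2 lower. Their summed level was 637, 484, 749 and 733 CPM in MDM and 1431, 777, 1238 and 1238 CPM in microglia. Of 3 tested mast cell, basophil and eosinophil genes none was called.

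Natural killer cell markers were mostly higher in MDM, while most T and B cell markers were not called. Of 10 tested natural killer cell genes MDM were higher at 7 and lower at none, with a summed level of 360.2, 464, 325 and 366 CPM in MDM and 8.92, 9.61, 4.21 and 2.91 CPM in microglia. Klrk1, which encodes NKG2D, gave most of the CPM in that sum, at 313, 295, 255 and 300.2 CPM in MDM and 0, 4.55, 0 and 0.759 CPM in microglia, with a log2 fold change of 7.71 that was 10.21 without microglia library 221. Gzma, granzyme A, had 16.4, 29.04, 11.6 and 17.3 CPM in MDM and 0, 1.03, 0 and 0 CPM in microglia, so that its few microglia reads came from library 221 alone. Without MDM library 221 the count of natural killer genes called higher was 4. Of 11 T cell genes 3 were higher and none lower, a count that was 1 without any one of MDM libraries 221 and 718 and microglia libraries 224, 431 and 718. Cd3e, a chain of the T cell receptor complex, had 1.21, 3.15, 0.651 and 0 CPM in MDM and 0, 0, 0 and 0 CPM in microglia and was not called (edgeR adjusted p = 0.073). MDM library 221 had the highest summed T cell level, in sums of 26.7, 123, 73.8 and 41.4 CPM in MDM and 16.9, 9.30, 10.8 and 10.1 CPM in microglia. Of 7 B and plasma cell genes Igha and Igkc were higher in MDM and Cd79b was lower. Igha, the IgA heavy chain, had 41.9, 69.04, 49.8 and 35.5 CPM in MDM and 0, 0, 0 and 0 CPM in microglia, at least 566-fold higher in MDM against a floor of 3 counts over the group, while Cd79a, a chain of the B cell receptor, had 7.96, 1.63, 1.30 and 2.36 CPM in MDM and 0.538, 0, 0.701 and 1.26 CPM in microglia and Ms4a1 (CD20) had 4.83, 0.933, 0 and 5.07 CPM in MDM and 0, 0, 0 and 0.885 CPM in microglia. Cd79a and Ms4a1 were thus low in every library. The 7 B and plasma cell genes together summed to 466 to 564 CPM in MDM and 332 to 425 CPM in microglia. Of 8 neutrophil genes 2 were higher and 1 lower, with S100a8 at 1.41, 3.15, 2.47 and 2.45 CPM in MDM and 0.108, 1.86, 0.117 and 5.31 CPM in microglia. The part of such cells in the differences above was not tested.

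Transcripts of tumour and progenitor cells moved with microglia. Of 15 tested glioma and progenitor genes 14 were lower in MDM and none higher, with a median of -4.78 (-4.35 with genes at 0 in MDM set to a floor of 3 counts) and summed levels of 41.3, 24.5, 47.8 and 38.1 CPM in MDM and 599, 659, 286 and 578 CPM in microglia. Pdgfra, the PDGF receptor of oligodendrocyte progenitors, had 6.14, 2.80, 0 and 0 CPM in MDM and 109, 121, 15.2 and 80.03 CPM in microglia. Its log2 fold change of -5.16 was -6.46 without MDM library 224, and the groups did not overlap. Olig1 had 5.94, 1.52, 7.29 and 5.44 CPM in MDM and 63.98, 61.4, 18.5 and 56.3 CPM in microglia, and Cntn1 averaged 1.08 ± 0.772 CPM in MDM and 63.4 ± 28.96 CPM in microglia. Sox2, a stem cell factor, had 0, 0, 0 and 0 CPM in MDM and 2.47, 3.31, 1.64 and 3.29 CPM in microglia, at least 33.3-fold lower in MDM against a floor of 3 counts over the group. Pdgfb, the model's driver, had 14.3, 8.75, 24.3 and 16.4 CPM in MDM and 128, 72.1, 117 and 124 CPM in microglia, a log2 fold change of -2.79 ± 0.30 (edgeR adjusted p = 8.79e-06). The count does not separate a transgenic Pdgfb transcript from the mouse gene. Microglia library 431 had the lowest sum of these genes among microglia. Other brain cell lists were short. Of 8 astrocyte genes 1 was higher and 1 lower, of 6 oligodendrocyte genes 1 was higher and 2 lower, of 3 neuronal genes 1 was lower, of 6 endothelial genes none was called and of 9 pericyte and fibroblast genes 2 were lower. Several of these calls rest on single libraries. The higher oligodendrocyte call was lost without MDM library 224 or 718 or microglia library 431 or 718, and the higher astrocyte call without MDM library 221 or 431 or microglia library 718. The neuronal call was lost without MDM library 224, 431 or 718 or microglia library 224, and both pericyte and fibroblast calls without MDM library 718. Without MDM library 221 a further astrocyte gene was lower. Gfap had 8.76, 5.95, 1.69 and 11.9 CPM in MDM and 5.05, 12.5, 19.3 and 9.74 CPM in microglia and Cldn5 had 23.4, 24.7, 0 and 3.44 CPM in MDM and 0, 14.3, 5.61 and 27.9 CPM in microglia, and neither was called. The lower astrocyte gene was the glutamate transporter Slc1a3, which microglia can express in tumours, at 8.36, 1.98, 10.7 and 5.53 CPM in MDM and 112, 114, 72.95 and 81.8 CPM in microglia. Its call held whichever single MDM or microglia library was left out (edgeR adjusted p at most 1.83e-04).

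Cell cycle genes were lower in MDM in 27 of 32 tested, with 1 higher and a median of -1.64. Mki67, the Ki-67 proliferation antigen, had 37.1, 47.3, 30.6 and 51.6 CPM in MDM and 91.6, 132, 199 and 126 CPM in microglia, a log2 fold change of -1.72 ± 0.30 (edgeR adjusted p = 7.05e-04). Top2a, topoisomerase II alpha, had 10.1, 53.1, 37.1 and 21.6 CPM in MDM and 95.7, 146, 195 and 117 CPM in microglia, and Ccnb1, cyclin B1, had 7.05, 20.6, 14.8 and 11.7 CPM in MDM and 71.8, 98.9, 107 and 81.5 CPM in microglia. MDM lay below microglia in every library for all 3. Mcm3, a subunit of the replication helicase, averaged 100.2 ± 31.4 CPM in MDM and 225 ± 56.4 CPM in microglia, and Pcna, the replication clamp, averaged 196 ± 4.39 CPM in MDM and 191 ± 25.8 CPM in microglia and was not called (edgeR adjusted p = 0.91). Ccnd2, cyclin D2, went the other way, at 586, 519, 620.3 and 501 CPM in MDM and 37.8, 43.8, 21.2 and 51.96 CPM in microglia, a log2 fold change of 3.85 ± 0.25 (edgeR adjusted p = 9.84e-08). Microglia library 431, lowest of its group in summed glioma and progenitor transcripts, was the highest of all 8 in Mki67, Top2a and Ccnb1. The part of tumour cell RNA in the difference was not tested.

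**Figure D4:**
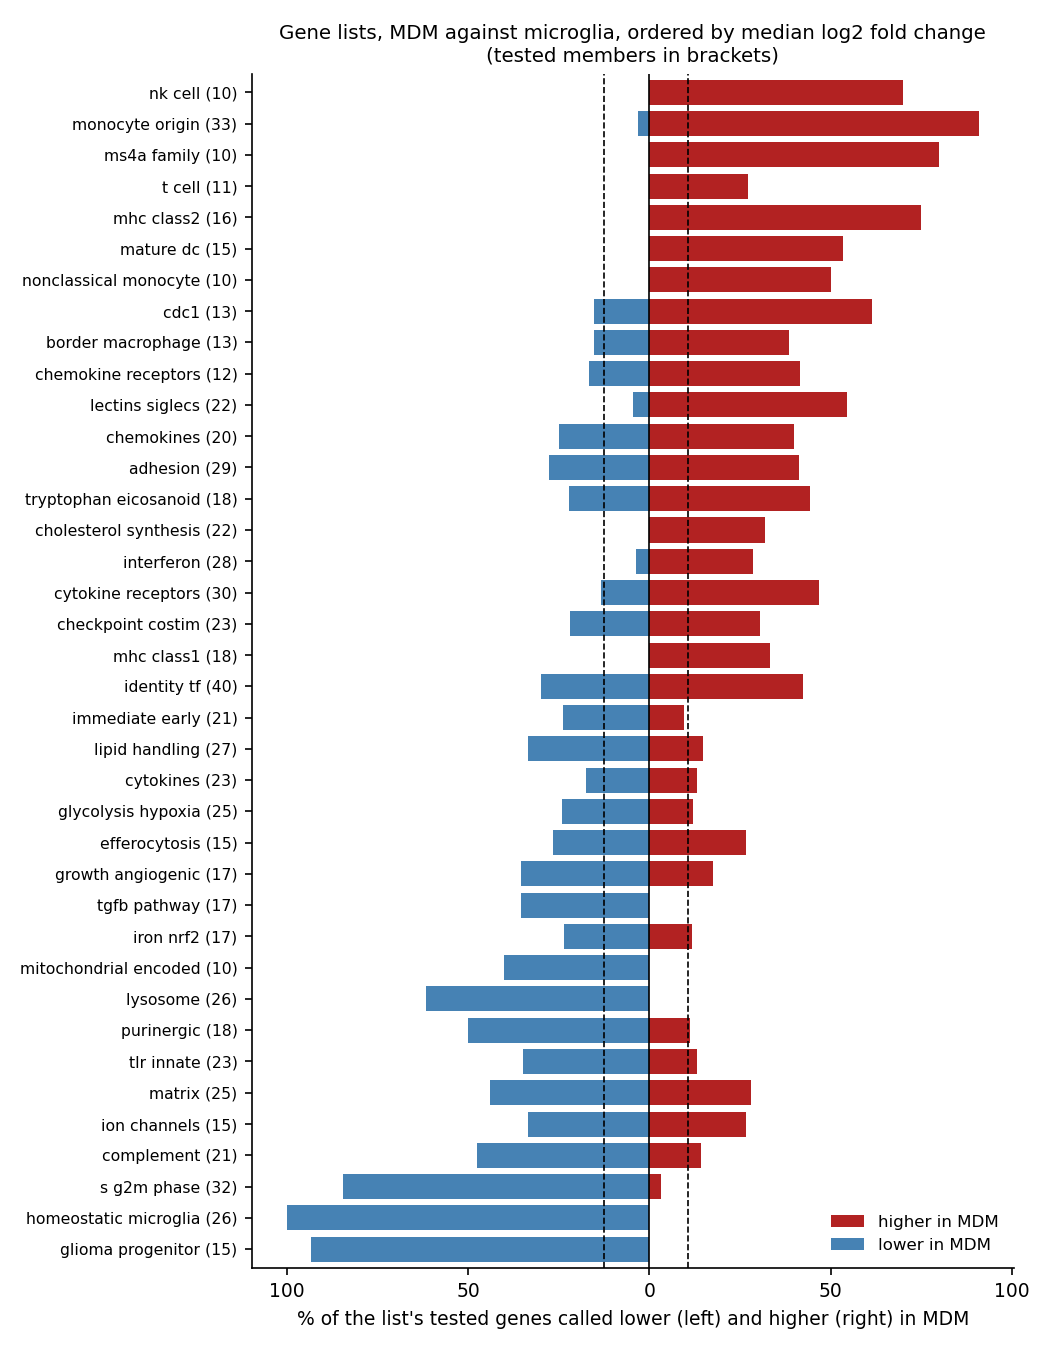
Share of tested genes called higher (right) and lower (left) in MDM for the gene lists with 10 or more tested members, as percent of the list. The dashed lines mark the shares over all genes tested, 10.7% higher and 12.5% lower.

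Chemokines divided into a microglial set of inflammatory CC ligands and an MDM set of other ligands, with 8 of 20 tested higher and 5 lower. Ccl2, the ligand of CCR2, had 271, 336, 217 and 338 CPM in MDM and 1230.3, 1280.2, 915 and 1388 CPM in microglia, a log2 fold change of -2.05 ± 0.20 (edgeR adjusted p = 4.43e-06). Ccl12, its mouse relative, averaged 145 ± 41.6 CPM in MDM and 555 ± 58.2 CPM in microglia. Ccl3 averaged 434 ± 47.8 CPM in MDM and 1217 ± 209 CPM in microglia, and Ccl4 averaged 571 ± 43.6 CPM in MDM and 1551 ± 289 CPM in microglia. All 4 were lower in MDM with no overlap, so ligand and receptor of the CCL2 axis were high in opposite populations. Cxcl16, which binds CXCR6 on T cells, had 757, 751, 672 and 807 CPM in MDM and 193, 344, 189 and 214 CPM in microglia, a log2 fold change of 1.67 ± 0.24 (edgeR adjusted p = 1.47e-04). Ccl17, a CCR4 ligand, had 71.4, 384, 53.6 and 98.7 CPM in MDM and 1.61, 3.41, 0.468 and 0 CPM in microglia, with MDM library 221 highest. Its log2 fold change of 6.73 was 5.72 without that library and 7.70 without microglia library 221. Of 12 receptors 5 were higher and 2 lower. Ccr1 averaged 576 ± 165 CPM in MDM and 38.2 ± 19.03 CPM in microglia and Cxcr4 averaged 60.2 ± 25.5 CPM in MDM and 6.72 ± 2.07 CPM in microglia.

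The 2 interleukin-1 cytokines moved apart. Il1b had 2028, 1910.2, 2044 and 2142 CPM in MDM and 348, 419.6, 274 and 387 CPM in microglia, a log2 fold change of 2.51 ± 0.15 (edgeR adjusted p = 7.33e-08), and Il1a had 393, 439, 423 and 486 CPM in MDM and 1282, 1536, 1030.5 and 1406 CPM in microglia, with -1.59 ± 0.16 (edgeR adjusted p = 4.70e-06). The soluble brake on the pathway, the receptor antagonist Il1rn, averaged 629.8 ± 212 CPM in MDM and 160.2 ± 85.4 CPM in microglia, and the decoy receptor Il1r2 had 1028, 723, 1255 and 1116 CPM in MDM and 10.4, 6.61, 0.117 and 0.253 CPM in microglia. Il1r2 was near 0 in microglia, and its log2 fold change of 7.85 was 8.73 without microglia library 224. Tnf was lower in MDM, at 417, 307, 348 and 477 CPM in MDM and 1205, 749, 802 and 1334 CPM in microglia (log2 fold change -1.40 ± 0.32, edgeR adjusted p = 0.0047). Il10 was low in both but higher in MDM, averaging 48.5 ± 19.3 CPM in MDM and 2.40 ± 2.43 CPM in microglia, with a log2 fold change of 4.35 that was 5.30 without microglia library 718. Of 23 cytokines tested 3 were higher and 4 lower. The other gene that was lower, beside Il1a, Tnf and Grn, was Csf1, the ligand of CSF1R, at 3.12, 12.4, 19.4 and 14.04 CPM in MDM and 105, 229, 173 and 202 CPM in microglia, a log2 fold change of -3.86 ± 0.44 (edgeR adjusted p = 1.48e-05). Its receptor Csf1r had 1285, 1401, 1143 and 1233 CPM in MDM and 3588, 2663, 2953 and 3315 CPM in microglia, with -1.31 ± 0.20 (edgeR adjusted p = 2.15e-04). Ligand and receptor were thus both lower in MDM, whereas the GM-CSF receptor chains were higher. Csf2ra averaged 385 ± 53.5 CPM in MDM and 222 ± 42.9 CPM in microglia, and Csf2rb averaged 719.6 ± 183 CPM in MDM and 243 ± 26.6 CPM in microglia. Of 30 cytokine receptors 14 were higher and 4 lower.

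The TGF-beta pathway, on which microglial identity depends, had no tested gene higher in MDM and 6 of 17 lower. Tgfbr2, the type II receptor, had 174, 128, 176 and 163 CPM in MDM and 480.1, 244, 383 and 463 CPM in microglia, a log2 fold change of -1.29 ± 0.28 (edgeR adjusted p = 0.0031), and Smad3 had 25.5, 16.2, 19.8 and 25.3 CPM in MDM and 87.1, 75.2, 60.8 and 95.6 CPM in microglia. Tgfb1, the ligand, averaged 30.6 ± 7.41 CPM in MDM and 23.1 ± 7.34 CPM in microglia and was not called (edgeR adjusted p = 0.53). Of 17 growth and angiogenic factors 3 were higher and 6 lower, and 5 were higher with only the 8 libraries without lipid load in the model. Vegfa, the main angiogenic factor, had 29.7, 29.97, 41.6 and 30.3 CPM in MDM and 13.3, 8.27, 13.7 and 12.4 CPM in microglia, a log2 fold change of 1.46 ± 0.30 (edgeR adjusted p = 0.0021). Tgfa, an EGF receptor ligand, had 1.81, 1.40, 6.64 and 2.63 CPM in MDM and 90.2, 94.98, 56.4 and 80.2 CPM in microglia, with MDM library 431 the highest of its group. Its log2 fold change of -4.71 was -5.33 without that library. Igf1 had 30.7, 81.9, 21.2 and 29.6 CPM in MDM and 74.5, 184, 26.3 and 73.3 CPM in microglia and was not called (edgeR adjusted p = 0.21). Library 221 was the highest of both groups, and the groups overlapped.

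Complement showed the microglial pattern with 1 strong exception. Of 21 tested genes 10 were lower in MDM and 3 higher. C1qa, C1qb and C1qc, the chains of C1q, were all lower: C1qa had 993, 1276, 1226 and 1179.8 CPM in MDM and 3095, 2369, 2888 and 3189 CPM in microglia, and the 3 log2 fold changes were -1.30 ± 0.15, -0.90 ± 0.11 and -1.25 ± 0.13. C4b had 7.55, 28.8, 13.9 and 16.2 CPM in MDM and 202, 221, 89.2 and 252 CPM in microglia, a log2 fold change of -3.52 ± 0.40 (edgeR adjusted p = 1.31e-05). C5ar1, the C5a receptor, averaged 243 ± 43.3 CPM in MDM and 631 ± 102 CPM in microglia, and Itgam, a chain of the iC3b receptor, averaged 161 ± 18.5 CPM in MDM and 447 ± 48.7 CPM in microglia. Cfp, properdin, the stabiliser of the alternative pathway convertase, had 1089, 1054, 1255 and 1182 CPM in MDM and 23.3, 14.9, 8.42 and 18.1 CPM in microglia, with 6.14 ± 0.52 (edgeR adjusted p = 1.22e-06). C3 itself was not called (edgeR adjusted p = 0.91), and library 221 was the highest of both groups, at 53.98, 211, 40.99 and 58.6 CPM in MDM and 53.1, 271, 43.02 and 44.4 CPM in microglia.

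Sensing and uptake receptors were mixed. Of 23 toll-like receptor and innate sensing genes 3 were higher in MDM and 8 lower. Tlr2 averaged 753 ± 140.4 CPM in MDM and 1337 ± 181 CPM in microglia and Tlr7 averaged 45.3 ± 7.26 CPM in MDM and 149 ± 48.7 CPM in microglia. Tlr8 went the other way, at 26.1, 52.2, 8.33 and 24.8 CPM in MDM and 0.968, 2.89, 2.81 and 1.52 CPM in microglia (log2 fold change 3.76 ± 1.00, edgeR adjusted p = 0.013). Of 8 Fc receptor genes, Fcrls, a homeostatic microglial gene, averaged 767 ± 281 CPM in MDM and 2488 ± 989 CPM in microglia, and the activating chain Fcer1g, with 1018 ± 46.7 CPM in MDM and 1007 ± 59.2 CPM in microglia, was not called. C-type lectins and Siglecs were mostly MDM genes, with 12 of 22 tested higher and 1 lower. Clec4n (dectin-2) had 374, 496, 372 and 533 CPM in MDM and 15.5, 17.8, 3.74 and 25.3 CPM in microglia, and Siglece averaged 168 ± 34.2 CPM in MDM and 28.4 ± 7.17 CPM in microglia.

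Of 15 genes of apoptotic cell uptake 4 were higher in MDM and 4 lower. Mertk, a receptor kinase for dying cells, had 58.2, 116, 69.5 and 79.99 CPM in MDM and 293, 247, 203 and 272 CPM in microglia, and its bridging ligand Gas6 averaged 63.6 ± 25.9 CPM in MDM and 394 ± 58.5 CPM in microglia. Pros1, another ligand, averaged 119 ± 21.3 CPM in MDM and 567 ± 118 CPM in microglia. All 3 were lower in MDM, with log2 fold changes of -1.65 ± 0.19, -2.63 ± 0.34 and -2.25 ± 0.20. Axl, a related kinase that also binds Gas6, was higher in MDM, at 289.7, 312, 397 and 331 CPM in MDM and 135, 211, 157 and 155 CPM in microglia (log2 fold change 1.01 ± 0.22, edgeR adjusted p = 0.0033). Trem2, a lipid and debris receptor, had 275, 344, 313 and 339 CPM in MDM and 1002, 773, 846 and 1014 CPM in microglia, with -1.52 ± 0.15 (edgeR adjusted p = 4.66e-06). Its adaptor Tyrobp, with 914 ± 98.4 CPM in MDM and 988 ± 126 CPM in microglia, was not called.

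These cells were collected as the fraction without lipid load, and the lipid genes showed no single direction, with 4 of 27 tested higher in MDM and 9 lower. Without microglia library 221 the count higher was 7. Plin2, the coat protein of lipid droplets, had 752, 702, 632 and 977 CPM in MDM and 700.4, 911, 559 and 1100.1 CPM in microglia and was not called (edgeR adjusted p = 0.81). Apoe, the apolipoprotein of brain macrophages and the gene with the highest CPM among those not called, had 12123, 12689.9, 12914 and 11949 CPM in MDM and 12291, 11078, 8505 and 14049.6 CPM in microglia, with a log2 fold change of 0.11 ± 0.15. Spp1, osteopontin, averaged 2546 ± 466 CPM in MDM and 1955 ± 781 CPM in microglia. The cholesterol exporters Abca1 and Abcg1 were lower in MDM. Abca1 averaged 252 ± 7.92 CPM in MDM and 546 ± 70.9 CPM in microglia, and Abcg1 averaged 584 ± 55.5 CPM in MDM and 1129 ± 205 CPM in microglia. The sterol sensor LXR-alpha (Nr1h3), which induces both, was higher, at 30.9, 41.5, 21.7 and 59.4 CPM in MDM and 4.52, 2.79, 0 and 4.68 CPM in microglia. Lpl, lipoprotein lipase, had 21.6, 35.5, 36.04 and 14.8 CPM in MDM and 272, 231, 279 and 247 CPM in microglia, a log2 fold change of -3.26 ± 0.27 (edgeR adjusted p = 9.02e-07). Gpnmb and Cd36 spread widely within microglia: Gpnmb had 47.1, 98.4, 186 and 144 CPM in MDM and 37.1, 421, 71.2 and 139.96 CPM in microglia and Cd36 had 47.5, 42.8, 13.1 and 22.5 CPM in MDM and 13.8, 292, 33.7 and 1.26 CPM in microglia. Library 221 was the highest microglia library for both, and neither gene was called.

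Cholesterol synthesis leaned to MDM, with 7 of 22 tested genes higher and none lower, a median of 0.70. Without scaling beyond library size 5 were higher and 1 lower. Srebf2, the factor that induces the pathway, had 74.6, 54.1, 34.6 and 38.5 CPM in MDM and 14.8, 9.40, 14.4 and 7.84 CPM in microglia, and Cyp51 had 122, 133, 131 and 122 CPM in MDM and 30.6, 35.97, 37.6 and 34.9 CPM in microglia. The log2 fold changes were 2.12 ± 0.36 and 1.87 ± 0.21 (edgeR adjusted p = 4.93e-04 and 1.60e-05). Lysosomal genes leaned to microglia, with 16 of 26 tested lower in MDM and none higher. Ctsb, cathepsin B, gave the largest fall in CPM among called genes, with 4535, 4849.8, 5079 and 5378 CPM in MDM and 7848, 9256, 7439 and 9355 CPM in microglia, but a log2 fold change of only -0.77 ± 0.10 (edgeR adjusted p = 4.55e-05). Ctsd had 679, 922, 1618 and 1185 CPM in MDM and 3826, 3040.3, 3836 and 4278 CPM in microglia, and Ctsf had 12.8, 34.3, 31.7 and 31.1 CPM in MDM and 375, 318, 253 and 323 CPM in microglia. Cst7, a cystatin, averaged 41.4 ± 13.7 CPM in MDM and 250.2 ± 41.8 CPM in microglia.

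Adhesion genes held some of the sharpest contrasts, with 12 of 29 tested higher in MDM and 8 lower. Itgb7, the partner of alpha-4 and alpha-E integrins, had 603, 421, 404 and 369 CPM in MDM and 8.92, 12.2, 1.52 and 2.91 CPM in microglia, a log2 fold change of 6.12 ± 0.77 (edgeR adjusted p = 3.65e-05). Cdh17, a cadherin, had 41.6, 50.1, 16.9 and 84.2 CPM in MDM and 0, 0, 0 and 0 CPM in microglia, at least 604-fold higher in MDM against a floor of 3 counts over the group. Cd81, a tetraspanin, had 441, 531, 778 and 663 CPM in MDM and 3235, 3233, 3145 and 3580.5 CPM in microglia, with -2.45 ± 0.17 (edgeR adjusted p = 1.62e-07). Of 25 matrix and protease genes 7 were higher and 11 lower. Timp2, a metalloproteinase inhibitor, had 28.1, 34.99, 58.9 and 35.1 CPM in MDM and 329, 205, 184 and 307 CPM in microglia, and Mmp14, the membrane protease that activates MMP2, had 115, 175, 164 and 156 CPM in MDM and 39.2, 67.1, 32.2 and 51.96 CPM in microglia, with log2 fold changes of -2.71 ± 0.29 and 1.68 ± 0.29.

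Immune checkpoint and costimulatory genes were split, with 7 of 23 tested higher and 5 lower. Cd80 had 73.3, 73.6, 83.4 and 105 CPM in MDM and 4.52, 7.34, 11.6 and 7.84 CPM in microglia, a log2 fold change of 3.42 ± 0.47 (edgeR adjusted p = 7.57e-05). Cd40 averaged 151 ± 19.4 CPM in MDM and 17.4 ± 12.1 CPM in microglia, and its log2 fold change of 3.11 was 3.74 without microglia library 221, the highest microglia library. Cd274 (PD-L1) had 108, 131, 65.7 and 82.4 CPM in MDM and 36.99, 140.5, 57.99 and 35.7 CPM in microglia and was not called (edgeR adjusted p = 0.52). Vsir (VISTA) and Lag3 were lower in MDM. Vsir averaged 239 ± 18.7 CPM in MDM and 562 ± 97.1 CPM in microglia, and Lag3 averaged 41.7 ± 10.3 CPM in MDM and 354 ± 101 CPM in microglia. Arg1, arginase 1, was high in all MDM libraries and in 1 microglia library, at 1399.8, 4269, 896 and 1482 CPM in MDM and 195, 2220.2, 106 and 145 CPM in microglia. Library 221 was the highest of both groups, and the gene was not called (log2 fold change 1.59 ± 0.97, edgeR adjusted p = 0.26). Without microglia library 221 the log2 fold change was 3.77 (edgeR adjusted p = 0.0066).

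Purinergic and eicosanoid genes included pairs of related members that moved apart, while the kynurenine genes called were higher in MDM. Of 18 purinergic genes 9 were lower in MDM and 2 higher, or 4 higher without microglia library 221. The adenosine receptor Adora3 had 2.11, 1.87, 2.21 and 3.53 CPM in MDM and 31.2, 24.9, 24.9 and 26.7 CPM in microglia, whereas Adora2b had 99.4, 101, 104 and 83.3 CPM in MDM and 7.42, 3.93, 1.64 and 6.32 CPM in microglia, and the log2 fold changes were -3.46 ± 0.36 and 4.32 ± 0.70 (edgeR adjusted p = 7.47e-06 and 3.41e-04). Entpd1 (CD39), which degrades extracellular ATP, was lower in MDM at 266, 325, 183 and 277 CPM in MDM and 436, 449, 399.96 and 388 CPM in microglia. Of 18 genes of the kynurenine and eicosanoid routes 8 were higher and 4 lower. Kmo, kynurenine 3-monooxygenase, had 354, 389.5, 308 and 382 CPM in MDM and 1.08, 1.24, 2.22 and 0 CPM in microglia, a log2 fold change of 8.27 ± 0.52 (edgeR adjusted p = 8.77e-08), and Kynu, kynureninase, had 74.02, 103, 50.7 and 62.8 CPM in MDM and 3.76, 5.06, 0.701 and 1.01 CPM in microglia. Ido1, which starts the route, had 2.11, 1.28, 0 and 1.90 CPM in MDM and 0, 0, 0 and 0 CPM in microglia and was not called (edgeR adjusted p = 0.058). Cyclooxygenases moved apart: Ptgs2 had 673, 469, 303 and 622 CPM in MDM and 136, 257, 67.5 and 116 CPM in microglia and Ptgs1 had 216, 309, 180.1 and 240.1 CPM in MDM and 627, 605, 637 and 532 CPM in microglia. Leukotriene enzymes did too. Lta4h averaged 332 ± 38.5 CPM in MDM and 97.2 ± 6.90 CPM in microglia, and Alox5 averaged 6.63 ± 2.38 CPM in MDM and 47.9 ± 6.11 CPM in microglia.

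Of 17 iron and antioxidant genes 2 were higher in MDM and 4 lower, with 1 higher without MDM library 224 or 718 or microglia library 224 or 431, and of 15 ion channel genes 4 were higher and 5 lower. Hmox1, haem oxygenase 1, had 321, 411, 426 and 410.1 CPM in MDM and 1389, 1442, 1063 and 1469 CPM in microglia, and Slc40a1, the iron exporter ferroportin, had 6.45, 17.8, 24.2 and 33.1 CPM in MDM and 224, 249.9, 109 and 201 CPM in microglia. Both were lower in MDM, with log2 fold changes of -1.77 ± 0.16 and -3.26 ± 0.37 (edgeR adjusted p = 1.94e-06 and 1.50e-05), while the ferritin light chain Ftl1 was not called. The potassium channel Kcnn4 was higher in MDM, at 90.1, 72.8, 136 and 117 CPM in MDM and 3.44, 5.58, 8.89 and 6.07 CPM in microglia, and Kcnk13, a potassium channel of microglia, was lower, at 39.8, 60.8, 38.3 and 61.6 CPM in MDM and 145, 156, 132 and 191 CPM in microglia. Of 28 interferon-induced genes 8 were higher and 1 lower, or 14 higher without microglia library 221, and 26 of the 28 had a positive log2 fold change, with a median of 0.63. Irf7 averaged 452 ± 62.3 CPM in MDM and 145 ± 40.6 CPM in microglia. Of 25 glycolysis and hypoxia genes 3 were higher and 6 lower: Pfkp averaged 474 ± 85.2 CPM in MDM and 62.8 ± 53.9 CPM in microglia, with a log2 fold change of 2.91 that was 3.71 without microglia library 221, and Pfkfb3 averaged 72.1 ± 12.8 CPM in MDM and 211 ± 30.5 CPM in microglia. Of 21 immediate early genes, which can rise during tissue dissociation, 2 were higher and 5 lower, or 3 lower without MDM library 221 or microglia library 224 or 718, and Fos, at 2122, 1803, 2014 and 1946 CPM in MDM and 1945, 1402, 1369 and 1868 CPM in microglia, was not called.

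Other genes with large changes had less to do with the lists. Plbd1, a phospholipase B-like protein, had 2141, 1828, 1794 and 1799 CPM in MDM and 18.3, 30.2, 3.04 and 10.7 CPM in microglia, a log2 fold change of 6.92 ± 0.98 (edgeR adjusted p = 1.12e-04). Qpct, glutaminyl cyclase, had 544, 658, 469 and 460.01 CPM in MDM and 32.3, 49.8, 14.1 and 26.2 CPM in microglia. Mdh2, mitochondrial malate dehydrogenase, had 1694, 1929, 1732 and 1583 CPM in MDM and 351, 581, 468 and 471 CPM in microglia, with 1.89 ± 0.16 (edgeR adjusted p = 1.28e-06). Lsp1, an actin-binding protein of leukocytes, had 1334, 986, 917 and 874 CPM in MDM and 62.7, 73.7, 60.9 and 59.4 CPM in microglia, and Jak2, a cytokine receptor kinase, had 243, 266, 247 and 164 CPM in MDM and 25.3, 20.7, 24.6 and 28.7 CPM in microglia. On the microglial side Serpine2, a protease inhibitor, had 34.8, 61.6, 105 and 71.6 CPM in MDM and 686, 799.5, 690.1 and 702 CPM in microglia, Pmp22 averaged 39.9 ± 25.2 CPM in MDM and 603 ± 62.6 CPM in microglia, and Maged1 averaged 19.9 ± 6.40 CPM in MDM and 266 ± 58.8 CPM in microglia. All 8 were called, and for each of them the 4 MDM and 4 microglia values did not overlap. Most of them were picked partly by these same criteria, so this describes the choice and adds no support. Over all genes tested, 13.8% lay wholly above and 14.8% wholly below in MDM.

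The same contrast of origin was then taken in the lipid-laden libraries, 3 MDM against 4 microglia, to see which differences were also found there. These libraries differ from those above in lipid load. They carry the same numbers and may come from the same animals, so they are not an independent set. MDM and microglia with lipid load differed at 413 genes (2.78% of those tested), with 327 higher in MDM (2.2%) and 86 lower (0.579%). That count rests partly on single libraries: it was 168 without lipid-laden MDM library 224, 261 without 718 and 243 without lipid-laden microglia library 431. Of the 1584 genes higher in MDM without lipid load, 1373 (86.7%) had the same sign with lipid load, 288 (18.2%) were called in that direction and 1 was called in the other. Their median log2 fold change was 1.46 without lipid load and 0.58 with it. Of the 1858 lower genes, 1548 (83.3%) had the same sign, 57 (3.07%) were called and 1 was called in the other direction, with medians of -1.97 and -0.49. Smaller values are to be read with the choice of these genes on the contrast without lipid load, which by itself favours larger values there. The difference between both contrasts, tested as an interaction over all genes, was called at 375 genes (2.53%), 237 positive (1.6%) and 138 negative (0.93%). This count was 231 without microglia library 224, 245 without lipid-laden MDM library 224 and 186 without 718.

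**Figure D5:**
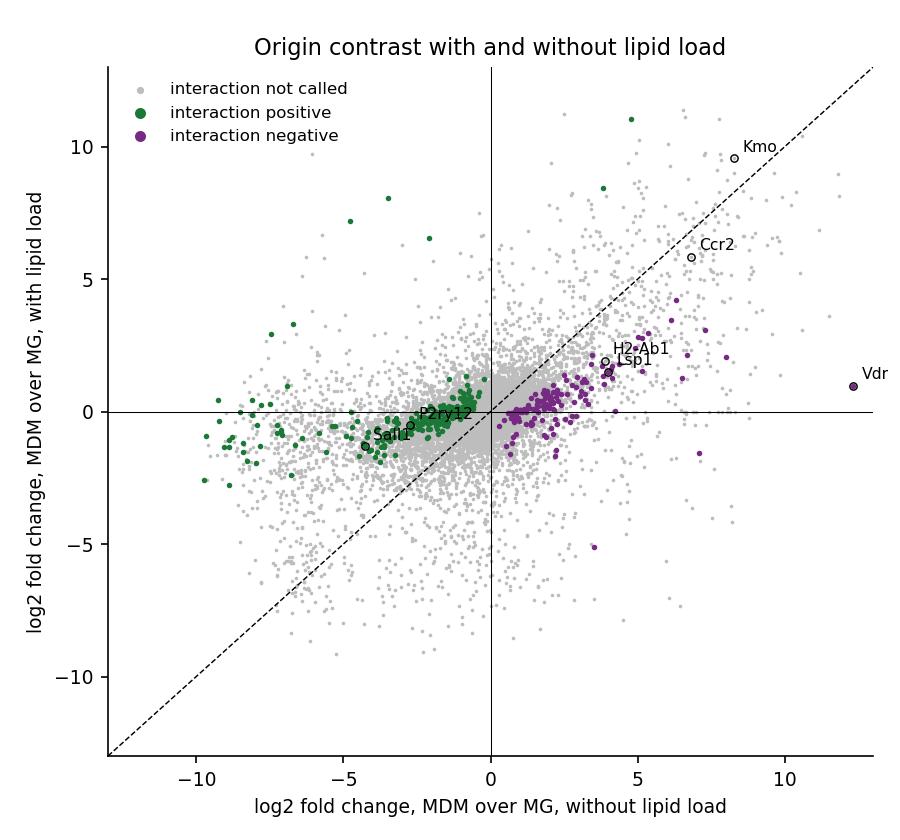
Log2 fold change of MDM over microglia with lipid load (vertical axis) against the same without lipid load (horizontal axis), 1 point for each of the 14843 genes tested. The 375 genes whose contrasts differed in the interaction test are coloured, and 261 of them lie between the diagonal and the horizontal zero line.

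Origin marks carried over in part. Of the 33 monocyte genes 17 were called higher with lipid load and none lower, with a median log2 fold change of 1.87 against 4.03 without it. Their interaction was called for 8, all negative. Ccr2 kept most of its contrast, with 290.1, 186 and 169.5 CPM in lipid-laden MDM (224, 221 and 718) and 2.67, 6.43, 0 and 5.69 CPM in lipid-laden microglia and a log2 fold change of 5.85 ± 0.63 with lipid load (edgeR adjusted p = 1.28e-04). Itga4 had a log2 fold change of 4.89 ± 1.07 (edgeR adjusted p = 0.021), which was 7.58 without lipid-laden microglia library 718 and not called without library 224 of either group (edgeR adjusted p up to 0.092). The 8 MS4A genes called without lipid load were all called in the same direction with it. Sall1 had 40.2, 49.7 and 42.99 CPM in lipid-laden MDM (224, 221 and 718) and 175, 81.2, 77.5 and 107 CPM in lipid-laden microglia, with a log2 fold change of -1.31 ± 0.32 against -4.28 without lipid load, an interaction of 2.97 ± 0.43 (edgeR adjusted p = 0.0031). P2ry12 had 541, 476 and 447 CPM in lipid-laden MDM (224, 221 and 718) and 1238, 320.5, 594 and 636 CPM in lipid-laden microglia, and its interaction was 2.22 ± 0.42 (edgeR adjusted p = 0.011). Of the 26 homeostatic microglial genes 4 were called lower with lipid load, against 1 without lipid-laden microglia library 431 and none without library 224 or 718 of either lipid-laden group or lipid-laden MDM library 221. A positive interaction was called for 15 and a negative one for none, with 7 and 9 positive without microglia libraries 224 and 718, and 9 and 5 without lipid-laden MDM libraries 224 and 718. The median log2 fold change of the 26 was -0.65 with lipid load, against -2.42 without it. Their summed level was 18154, 14382 and 19354 CPM in lipid-laden MDM (224, 221 and 718). In lipid-laden microglia it was 32778, 14447.5, 25140 and 24140 CPM, with library 221 the lowest. A gene not called here is not thereby shown to be alike in both groups.

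Class II genes were mostly not called with lipid load. H2-Ab1 had 2958, 4902 and 2261 CPM in lipid-laden MDM (224, 221 and 718) and 241, 2407, 541 and 359 CPM in lipid-laden microglia, a log2 fold change of 1.93 ± 0.76 that was not called (edgeR adjusted p = 0.24), and 1 of 16 class II genes was called with lipid load, or 6 without lipid-laden microglia library 221. The interaction was called for 5 of the 16, all negative, and for H2-Ab1 it was -1.95 ± 1.05 (edgeR adjusted p = 0.38), not called. Cd81 had the smallest p of the positive interactions, at 1.93 ± 0.23 (edgeR adjusted p = 0.0018), with 1938, 2639 and 2104 CPM in lipid-laden MDM (224, 221 and 718) and 3668, 2853, 3186 and 3072 CPM in lipid-laden microglia. Lsp1, Ccnd2 and Jak2 had the smallest p of the negative interactions, at -2.49 ± 0.29, -2.82 ± 0.34 and -2.54 ± 0.31 (edgeR adjusted p = 0.0018, 0.0018 and 0.0018). Vdr, with no read in microglia without lipid load, had 3.25, 3.42 and 3.59 CPM in lipid-laden MDM (224, 221 and 718) and 0, 4.92, 0 and 1.93 CPM in lipid-laden microglia. Kmo and Kynu were called higher with lipid load too (edgeR adjusted p = 1.29e-05 and 1.31e-04). Kmo had 32.3, 41.5 and 16.4 CPM in lipid-laden MDM (224, 221 and 718) and 0, 0.100, 0 and 0 CPM in lipid-laden microglia, and Kynu had 22.7, 42.2 and 19.1 CPM in lipid-laden MDM (224, 221 and 718) and 0, 0, 0 and 0 CPM in lipid-laden microglia. Glycolysis and hypoxia genes were called lower in lipid-laden MDM at 8 of 25 tested and higher at none. That count was 15 without lipid-laden microglia library 224, 3 without 221, 431 or 718, and 1 without lipid-laden MDM library 224 or 718. Among them Ndrg1, a hypoxia-induced gene, had log2 fold changes of -1.66 ± 0.41 with lipid load and 2.19 without it, an interaction of -3.85 ± 0.56 (edgeR adjusted p = 0.0031) that was called without any one of the 15 libraries. Its call with lipid load was lost without any one of these libraries other than lipid-laden microglia library 224 (edgeR adjusted p up to 0.21). Ndrg1 averaged 88.5 ± 14.8 CPM in MDM and 19.4 ± 6.42 CPM in microglia without lipid load, and with it had 18.9, 29.4 and 25.7 CPM in lipid-laden MDM (224, 221 and 718) and 23.6, 112, 104 and 71.6 CPM in lipid-laden microglia.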

How the data were processed

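RNA was sequenced in bulk from flow-sorted populations of mouse glioma, 4 MDM, 4 microglia, 3 lipid-laden MDM and 4 lipid-laden microglia libraries. The authors deposited 1 table of read counts for 55486 genes, whole numbers and not normalized per the file headers and values. Coordinates are on mm10, named in the submitters' processing notes. The aligner, the counter and its strand setting are not given in these sources. Reads from overlapping genes and near-identical copies may therefore be split or shared between genes.

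Groups and numbers were taken from the sample labels. Genes were kept by edgeR's filterByExpr (minimum count 10, minimum total 15), which left 14843, and scaled by TMM. All 15 libraries entered 1 quasi-likelihood model in edgeR 4.0.16 (R 4.3.3) with 1 coefficient for each group and no covariate. The contrasts were MDM minus microglia without lipid load, the same with lipid load, and their difference. Genes were called at a Benjamini-Hochberg adjusted p below 0.05 over all genes tested. CPM are TMM-scaled, spreads are SD over libraries (n = 4, or 3 for lipid-laden MDM), and ± after a log2 fold change is a standard error derived from the F statistic. For a gene with no read in 1 group, the fold bound uses 3 counts over that group, which covers counting error only.

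Named genes were drawn from called genes with the largest change and no overlap between libraries, the largest differences in CPM, key members and leading genes of each list, the most abundant genes not called, and the strongest interactions. The members and lists were chosen with earlier results of these data known, so no list has a test of its own. Some genes of the lists are not reported here by name. Alternatives were other scalings, other filters, DESeq2 1.42.0, limma-voom (limma 3.58.1), the library number as a block, the 8 libraries alone, and each library or number left out. Promoter windows came from RefSeq on GRCm38.p6, of the same primary assembly as mm10.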

Additional observations from a re-analysis of the deposited data

Results flagged for a closer look

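Named genes in MDM and in microglia without lipid load gave 364 gene and group combinations, and those with a highest value under 1 CPM were skipped. In 31 of the rest, 1 library stood apart from the other 3. The measure was the gap to the nearest of these against the range of the group (Dixon, 95% level). Chance alone gives about 1 in 20 groups such a gap if values are normally spread, which was not tested for these CPM. Microglia library 221 was the high one for 12 genes. It had 2103 CPM of H2-Ab1, 937 CPM of H2-Aa, 785 CPM of H2-Eb1, 2673 CPM of Cd74 and 317 CPM of Psmb8, all genes of antigen presentation. It also had 2220.2 CPM of Arg1, 271 CPM of C3, 292 CPM of Cd36, 344 CPM of Cxcl16 and 799.5 CPM of Serpine2, and, of natural killer genes, 4.55 CPM of Klrk1 and 1.03 CPM of Gzma. The same library was the low one for Sparc, at 1272 CPM, and for Cst7, at 188 CPM.

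Among the MDM libraries, 221 was high for C3 (211 CPM), Ccl17 (384 CPM), Igf1 (81.9 CPM) and Irf8 (328 CPM) and low for Tgfb1 (19.5 CPM). MDM library 224 was high for Plbd1 (2141 CPM), Tlr7 (56.2 CPM) and Cd79a (7.96 CPM) and low for C1qc (1499 CPM), Ctsf (12.8 CPM) and Hmox1 (321 CPM). MDM library 431 was high for Vegfa (41.6 CPM) and low for C5ar1 (179 CPM). Among the other microglia libraries, 431 was low for Abca1 (441 CPM) and Olig1 (18.5 CPM), 224 was high for Ahr (2.26 CPM) and 718 was high for Rfxap (8.85 CPM).

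For 71 named genes the MDM over microglia contrast differed between cells with and without lipid load in edgeR's interaction test, 50 with a positive and 21 with a negative difference of log2 fold changes (with minus without lipid load). The call of 41 of them held without any one of the 15 libraries, and 30 lost it in at least 1 omission. Hmox1, Mcm3, Pfkp, Srebf2 and Vegfa lost it in 13 of the 15 omissions. Kynu and Pmp22 did so in 12, Csf1r in 11, and Cx3cr1 and Plac8 in 10. The others of the 30 lost it in 9 or fewer. Most homeostatic microglial genes named here had a positive difference, of 1.14 for Csf1r, 1.62 for Cx3cr1, 2.33 for Gpr34, 2.15 for Lag3, 2.22 for P2ry12, 2.97 for Sall1, 3.99 for Slc2a5 and 1.95 for Tmem119. Complement genes followed, with 1.12 for C1qa, 0.82 for C1qb, 1.09 for C1qc, 3.16 for C4b, 1.42 for C5ar1 and 0.91 for Itgam, but -2.70 for Cfp. The chemokines Ccl2, Ccl12, Ccl3 and Ccl4 had 1.76, 1.55, 1.33 and 1.00. Among cytokines and their receptors the difference was 1.35 for Il1a, 1.09 for Grn, -1.11 for Il1b and -1.31 for Csf2rb. Class II genes were negative, with -1.68 for H2-DMb1, -2.40 for H2-DMb2, -2.52 for H2-Oa and -2.47 for H2-Ob.

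In genes of uptake and lysosome the difference was 2.03 for Gas6, 1.60 for Mertk, 2.06 for Pros1, 1.32 for Trem2, 0.92 for Ctsb, 1.37 for Ctsd and 2.50 for Ctsf. In lipid and sterol genes it was 1.10 for Abca1, 1.64 for Lpl, -1.36 for Cyp51 and -2.03 for Srebf2, and in eicosanoid genes 1.47 for Ptgs1 and -1.56 for Lta4h. Of transcription factors Bhlhe41 had 1.98, Sall3 had 4.09 and Bhlhe40 had -2.14. The fitted values of Kynu and Vdr rest on a group with no read and depend on the prior count, at 6.27 and -11.35. The purinergic genes Adora3 and Entpd1 had 2.46 and 1.22, and the cell cycle genes Ccnb1 and Mcm3 had 2.00 and 1.27. Hypoxia and growth genes gave -3.85 for Ndrg1, -3.10 for Pfkp, -1.70 for Vegfa and 4.13 for Tgfa.

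Of the remaining positive differences, those of Cntn1 and Slc1a3 were 5.00 and 3.15, those of Cadm1, Cd81 and Pmp22 were 2.67, 1.93 and 2.21, and those of Serpine2, Timp2 and Maged1 were 2.30, 2.10 and 1.85. Slc40a1, Hmox1, Kcnk13 and Tlr7 had 2.29, 0.93, 1.25 and 1.32. The remaining negative ones were -2.82 for Ccnd2, -2.54 for Jak2, -2.49 for Lsp1, -1.68 for Mdh2, -2.84 for Qpct and -2.35 for Plac8.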

How the results depend on the processing

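No named gene changed sign between the main fit and an alternative where it was called in either. Some genes called in neither did, such as C3 (log2 fold change -1.005 to 0.97) and Gpnmb (-1.03 to 0.63). Of 182 named genes, 170 stayed on their side of the threshold in every setting where they had a value, and 12 changed side in at least 1. Of 154 called named genes, 150 kept the call whichever single MDM or microglia library was left out, and H2-Aa, H2-Eb1, Cd74 and Vcan lost it in some. Many named genes were chosen for a large change or a small p, which favours keeping the call. Among all genes called in the main fit, 77.1% to 84.6% were still called with 1 MDM or microglia library left out. With both libraries of a number left out, 61.1% to 73% were. The count of genes called between MDM and microglia without lipid load, 3442, ranged over 3060 to 4130 across scalings, filters and tools, and DESeq2 gave the highest value. The share of calls higher in MDM was 46% with TMM, 47.4% with DESeq2 size factors, 39.6% with upper quartile scaling and 37.9% without scaling. Leaving out 1 library gave 2755 to 3158 called genes, 1269 to 1546 higher and 1462 to 1639 lower. Leaving out both libraries of a number gave 2167 to 2705 called, 1059 to 1298 higher and 1108 to 1407 lower; the lowest counts came without 718 (2167 called, 1108 lower) and without 224 (2195 called, 1117 lower), where fewer libraries remained. With lipid load, 413 genes were called, 798 by DESeq2 and 168 to 378 with 1 library left out. The interaction was called at 375 genes, 960 by DESeq2 and 186 to 452 with 1 library left out, and the cause of the differences between tools was not tested. The titles do not say that a number is 1 animal, so the main model did not pair the libraries by number. Same-numbered MDM and microglia libraries deviated together only weakly, with correlations of 0.0152 to 0.15 against -0.134 to 0.0296 for different numbers. As a hint from the data, all 4 MDM libraries correlated best with their own number. With the number as a replicate block, 3969 genes were called (1865 higher, 2104 lower), 569 with lipid load and 657 in the interaction. Of the named genes the block ended the call of Vcan and added Arg1 and Igf1. Totals of 7798952 to 11419338 counts leave genes of a few CPM, such as Cd3e, Ms4a1 and Ido1, with wide errors.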
